A study of Mus musculus with 6 samples.

Results

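Guanylate-binding proteins (GBPs) and immunity-related GTPases (IRGs) are interferon-inducible GTPases of cell-autonomous defence, and 10 of their mouse genes were listed for study: Gbp2, Gbp3, Gbp4, Gbp6, Gbp7, Gbp8, Gbp9, Igtp, Irgm1 and Irgm2. A gene counted as measured where a probe set named only that symbol, and 6 of the 10 met this: Gbp3, Gbp4, Gbp7, Gbp8, Gbp9 and Irgm1, among 19938 genes in all. The other 4 (Gbp2, Gbp6, Igtp and Irgm2) were covered only by probe sets that name several genes and are described separately. The values are log2 expression from Affymetrix arrays of BDC2.5 CD4 T cells, which carry a T cell receptor for a beta cell antigen. They had been transferred into female mice of the NOD strain, which develops autoimmune diabetes, and were sorted from the spleen as Thy1.1+CD4+ cells, with the mice given as 7 weeks of age. All groups of mice had received the T cells. One group was injected with PBS, one with 100 ng of anti-DEC205-BDC and one with 100 ng of anti-DCIR2-BDC, and the cells were taken 14 h later. The antibodies carry the BDC antigen to dendritic cells that bear DEC205 or DCIR2. No group received an antibody without the antigen, so that effects of the antibody and of the antigen cannot be told apart. There were 2 arrays a group, called biological duplicates in the labels (array 1 and array 2 are their replicate numbers). The number of mice behind an array is not stated in the sources used here, and p-values measure the spread between these arrays.

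GBPs are large GTPases related to dynamins. They assemble on the membranes of pathogen-containing vacuoles and on bacteria in the cytosol, and can bring these to the attention of the inflammasome. Within the IRG family, Irgm1, Irgm2 and Igtp (also called Irgm3) are regulators that sit on the cell's own membranes and hold the effector IRGs inactive there. In CD4 T cells Irgm1 is known for keeping cells alive that are exposed to interferon gamma. The genes are induced by interferon gamma and by type I interferons through transcription factors that include interferon regulatory factors such as Irf1.

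The RefSeq promoter table (GRCm38.p6, 250 bases before to 50 after each start) held 6 of the 10 genes. All 6 contained GAAA followed, after any 2 bases, by another GAAA, the core of the interferon-stimulated response element, on 1 strand or the other (TTTC, any 2 bases, TTTC), before at least 1 of their starts. Of all 32851 promoters of this length 3.44% held these letters. The genes were listed as interferon-inducible, so an interferon element in their promoters is no independent test. The stretches of Igtp and Irgm2 are nearly the same sequence, so the 6 genes do not count separately. The stretches of 60 bases around the matches are shown. Only Gbp3, Gbp7 and Irgm1 of these 6 genes have a probe set of their own. The pattern is not particular to the listed genes: the promoters of Gbp2b and Gbp5, which neighbour them, held 1 match each. Each reads 5′ to 3′ on the gene's own strand, with the matched letters in capitals.
Gbp3: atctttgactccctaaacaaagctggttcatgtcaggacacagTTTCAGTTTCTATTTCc
Gbp7: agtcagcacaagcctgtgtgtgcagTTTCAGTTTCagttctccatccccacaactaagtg
Gbp2: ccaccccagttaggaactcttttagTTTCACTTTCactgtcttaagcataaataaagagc
Irgm1: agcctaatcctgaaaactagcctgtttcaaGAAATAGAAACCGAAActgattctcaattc
Igtp: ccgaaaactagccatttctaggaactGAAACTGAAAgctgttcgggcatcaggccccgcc
Irgm2: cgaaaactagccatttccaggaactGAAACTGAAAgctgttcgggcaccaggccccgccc

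The stretch of Gbp3 lies at chr3:142559956-142560015 on the plus strand and holds 2 overlapping matches, 45 to 30 bases before the first of the gene's starts. Its other listed start had 0 matches. That of Gbp7 lies at chr3:142530258-142530317 on the plus strand (match 53 to 44 bases before the start) and that of Gbp2 at chr3:142620579-142620638 on the plus strand (59 to 50 bases). For Irgm1 the stretch is chr11:48871421-48871480 on the minus strand, with 2 overlapping matches 30 to 15 bases before the start. For Igtp it is chr11:58199496-58199555 (34 to 25 bases) and for Irgm2 chr11:58214888-58214947 (64 to 55 bases), both on the plus strand. A second pattern, TTCNNNGAA, the core of the gamma-activated site (it reads the same on both strands), was found in 3 of the 6 genes, 2 times in Gbp7 and 1 time each in Igtp and Irgm2. It occurs in 8.3% of all promoters, and 2 times in that of Gbp5. Matches of letters describe these windows and do not show a factor bound there. In RefSeq order Gbp7 and Gbp3 are neighbours, as are Igtp and Irgm2, and Gbp8, Gbp9 and Gbp4 follow one another directly.

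After anti-DEC205-BDC all 6 measured genes were lower than in the PBS group, by 1.69-fold (Gbp3) to 3.19-fold (Gbp7), and all 6 passed the threshold of an adjusted p of 0.05. This count was 4 with each array centred on its median or with only the 4 arrays compared, and 1 (Gbp9) when all 35556 probe sets were tested. After anti-DCIR2-BDC all 6 were lower as well, by 1.71-fold (Gbp3) to 5.16-fold (Gbp4), and again all 6 passed. The median log2 change of the 6 was -1.25 after anti-DEC205-BDC, against -0.0252 for all genes tested, and -1.96 after anti-DCIR2-BDC, against -0.0494. Of all genes 3.53% passed downwards after anti-DEC205-BDC and 7.82% after anti-DCIR2-BDC. In all 6 genes the antibody arrays lay below both PBS arrays, as they did for 26.5% and 31.9% of all genes, and all 6 had an unadjusted p under 0.05, as did 20.7% and 28.1% in either direction. Both comparisons use the same PBS arrays and are given side by side, not as independent evidence. In sorted cells a lower value can mean fewer cells with the transcript or less of it per cell, which cannot be told apart here.

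**Figure D1:**
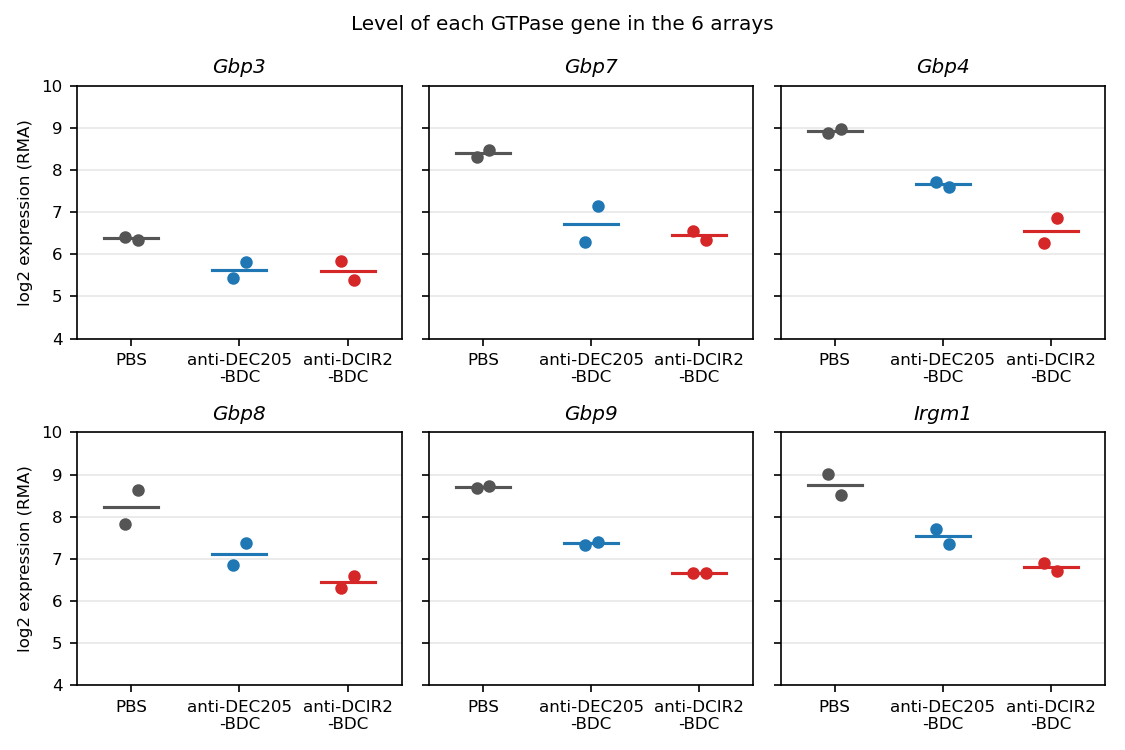
Deposited log2 expression of the 6 genes (vertical axis, arrays as points, 2 a group, horizontal bars for group means) by group (horizontal axis). All antibody arrays sit below the PBS arrays in each panel; for Gbp4, Gbp8, Gbp9 and Irgm1 the anti-DCIR2-BDC arrays also sit below the anti-DEC205-BDC arrays.

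Gbp4 encodes a GBP, and its gene lies beside Gbp9. Its log2 level was 8.88 and 8.98 in the PBS arrays, 7.73 and 7.60 after anti-DEC205-BDC, and 6.26 and 6.86 after anti-DCIR2-BDC. The 3 groups did not overlap, and the anti-DCIR2-BDC arrays were lowest. Against PBS the change was -1.27 (standard error 0.23, limma adjusted p = 0.0069) after anti-DEC205-BDC, a call lost only when every probe set was tested (0.0613). After anti-DCIR2-BDC it was -2.37 (standard error 0.23, adjusted p = 9.39e-05), rank 17 from the bottom among the changes of all 19938 genes.

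Gbp9, its neighbour, gave the closest replicates of the 6. Its level was 8.69 and 8.74 in PBS, 7.33 and 7.41 after anti-DEC205-BDC, and 6.65 and 6.67 after anti-DCIR2-BDC. The steps between the groups were many times the gaps between the duplicates. Its log2 changes against PBS were -1.34 (standard error 0.18, limma adjusted p = 0.00181) and -2.05 (adjusted p = 6.55e-05), in the same order of antibodies. Gbp9 was the only one of the 6 genes that kept its call in both comparisons under all 17 alternatives.

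Gbp8, the next gene along, was at 7.82 and 8.62 in PBS, 6.86 and 7.37 after anti-DEC205-BDC, and 6.31 and 6.58 after anti-DCIR2-BDC. Its PBS arrays lay far apart, yet the groups did not overlap. The changes were -1.11 (standard error 0.28, limma adjusted p = 0.0353) and -1.78 (adjusted p = 0.00147). After anti-DEC205-BDC the change of Gbp8 was -0.71 without PBS array 2 (adjusted p = 0.193) and -0.85 without DEC205 array 1 (0.183), and it also did not pass without either of the DCIR2 arrays (0.0704 and 0.0707), which only add to the estimate of spread.

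Gbp7 had the largest change of the 6 after anti-DEC205-BDC. Its level fell from 8.32 and 8.49 in PBS to 6.30 and 7.15, a log2 change of -1.68 (standard error 0.27, limma adjusted p = 0.00404) and rank 19 from the bottom among all genes. Tested among every probe set it did not pass (adjusted p = 0.0579). After anti-DCIR2-BDC it was 6.55 and 6.35, a change of -1.95 (adjusted p = 0.000586). The 2 antibody groups overlapped, since DEC205 array 1 was the lowest of all 6 arrays.

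Gbp3, the neighbour of Gbp7, changed least. Its level was 6.42 and 6.35 in PBS, 5.43 and 5.83 after anti-DEC205-BDC, and 5.83 and 5.39 after anti-DCIR2-BDC. The antibody groups covered the same range, below the PBS arrays. Gbp3 stood at percentiles 66.0 and 63.3 of all genes in PBS, where the rest of the 6 stood at 87.6 to 96.3. In the antibody arrays it was near the middle, at 45.7 to 55.0. Whether this lower level limits its change was not tested. The changes were -0.75 (standard error 0.20, limma adjusted p = 0.0456) and -0.77 (adjusted p = 0.0235). The first was lost under 11 of 17 alternatives, among them leaving out PBS array 1 (0.157), PBS array 2 (0.114), DEC205 array 1 (0.238), DCIR2 array 1 (0.0534) or DCIR2 array 2 (0.0556). The second was lost without PBS array 1 (0.0936), PBS array 2 (0.066) or DCIR2 array 2 (0.215).

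Irgm1, a regulator of the IRG family, was at 9.01 and 8.52 in PBS, 7.72 and 7.36 after anti-DEC205-BDC, and 6.90 and 6.70 after anti-DCIR2-BDC. The groups did not overlap. Its log2 changes were -1.23 (standard error 0.23, limma adjusted p = 0.00825) and -1.96 (adjusted p = 0.000243), or 2.34-fold and 3.90-fold lower. The first was lost when PBS array 1 (limma adjusted p = 0.057) or DEC205 array 2 (0.0574) was left out. Across the 6 arrays the 15 pairs of the 6 genes correlated at r = 0.723 to 0.974 with a median of 0.927. The arrays share their groups, so this describes the common step between groups rather than variation among like samples.

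**Figure D2:**
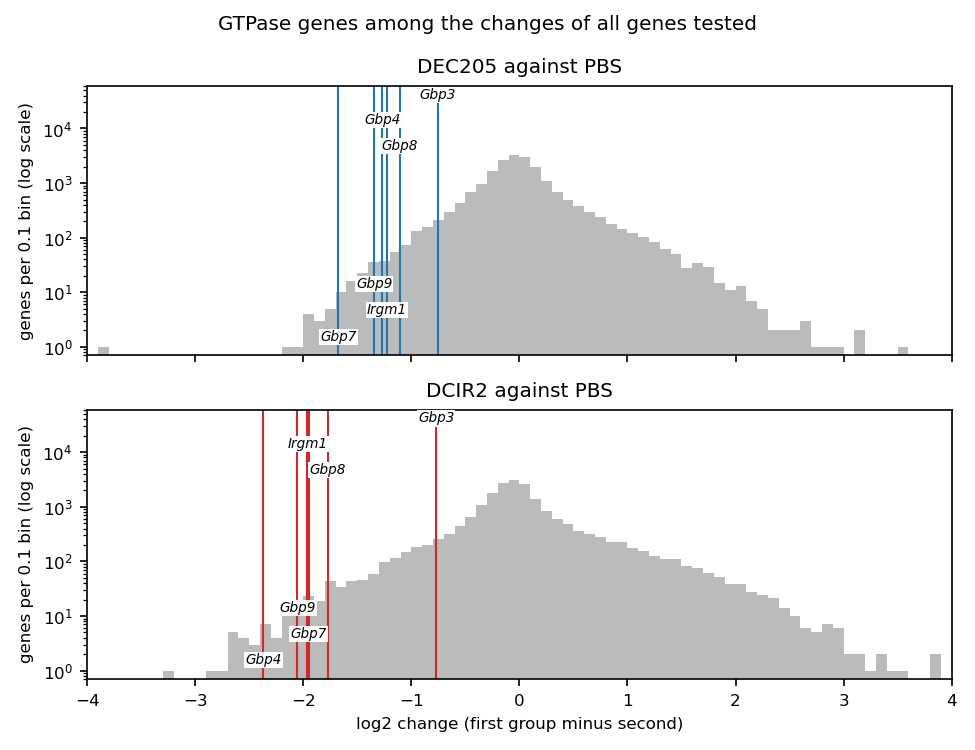
Number of genes (vertical axis, log scale) by log2 change against PBS (horizontal axis, bins of 0.1) for all 19938 genes, with the 6 genes marked by lines, after anti-DEC205-BDC (top) and anti-DCIR2-BDC (bottom). Gbp7 is farthest left at -1.68 in the top panel and Gbp4 at -2.37 in the bottom panel; genes that rose by more than 4 are outside the axis.

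The direct comparison of the antibodies asked whether the fall differed between antigen delivered by DEC205 and by DCIR2. None of the differences passed: 0 of 6 genes were called in limma, where 4 of 6 had an unadjusted p under 0.05, all lower after anti-DCIR2-BDC. Of all genes 0.0201% were called, each of them higher after anti-DCIR2-BDC, 10.2% had an unadjusted p under 0.05, and 4.63% had one in the lower direction. For 4 of 6 genes the anti-DCIR2-BDC arrays lay below both anti-DEC205-BDC arrays, as for 20.9% of all genes. Gbp4 was 2.14-fold lower after anti-DCIR2-BDC (log2 difference -1.10, 95% interval -1.60 to -0.60, adjusted p = 0.18). The differences of Irgm1, Gbp9 and Gbp8 were -0.74 (-1.24 to -0.23, adjusted p = 0.316), -0.71 (-1.11 to -0.31, adjusted p = 0.23) and -0.67 (-1.29 to -0.042, adjusted p = 0.461). These intervals are not adjusted for the number of genes, and the difference of Gbp8 was -0.41 without DEC205 array 2. Those of Gbp7 and Gbp3 were -0.28 (-0.86 to 0.31, adjusted p = 0.805) and -0.0152 (-0.47 to 0.44, adjusted p = 0.99), so that differences of up to 0.86 and 0.47 in the lower direction are not excluded. Gbp4, Gbp8, Gbp9 and Irgm1 stood in the order PBS, anti-DEC205-BDC, anti-DCIR2-BDC with no overlap of arrays, 4 of 6 genes against 7.1% of all genes.

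**Figure D3:**
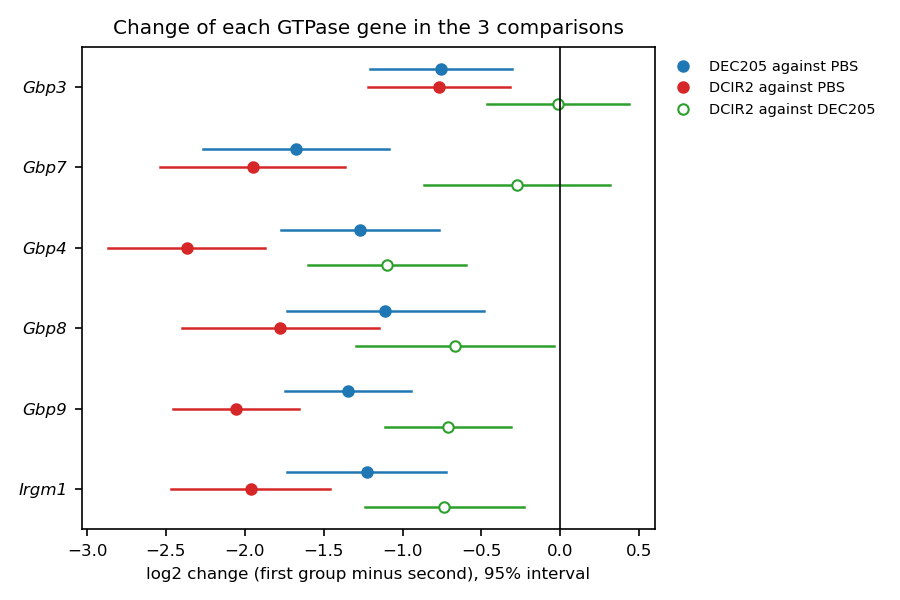
Log2 change (horizontal axis, points, with 95% intervals from limma as lines) of each gene (vertical axis) in the 3 comparisons; filled points passed an adjusted p of 0.05 and open points did not. All changes against PBS lie between -2.37 and -0.75, and the open points of the antibody comparison range from -1.10 to -0.0152.

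The genes without a probe set of their own were read only as part of shared probe sets, tested among all 35556 probe sets, and none of these values belongs to 1 gene. The probe set 10376326, annotated to Igtp and Irgm2 together, was at 9.30 and 8.98 in PBS, 7.93 and 7.80 after anti-DEC205-BDC, and 6.85 and 6.97 after anti-DCIR2-BDC. The groups did not overlap, and the log2 changes against PBS were -1.28 (limma adjusted p = 0.0386) and -2.23 (adjusted p = 0.0053). The probe set 10496592, annotated to Gbp2 and Gbp2b, was at 8.09 and 7.76 in PBS, 7.19 and 6.88, and 6.42 and 6.14, in the same order of groups. Its change after anti-DEC205-BDC, -0.89, did not pass (adjusted p = 0.11), and that after anti-DCIR2-BDC, -1.65, did (adjusted p = 0.0113). Gbp6 was covered by the probe set 10531994, annotated also to Gbp4, Gbp8, Gbp9, Gbp10 and Gbp11. It was at 9.08 and 9.20 in PBS, 8.05 and 8.02, and 6.99 and 7.25, with changes of -1.10 (adjusted p = 0.0444) and -2.02 (adjusted p = 0.00559). Among all probe sets 0.512% passed downwards after anti-DEC205-BDC and 3.99% after anti-DCIR2-BDC. The genes on the last set are related copies, and whether the sets that name only Gbp4, Gbp8 or Gbp9 also pick up RNA of the others was not tested.

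**Figure D4:**
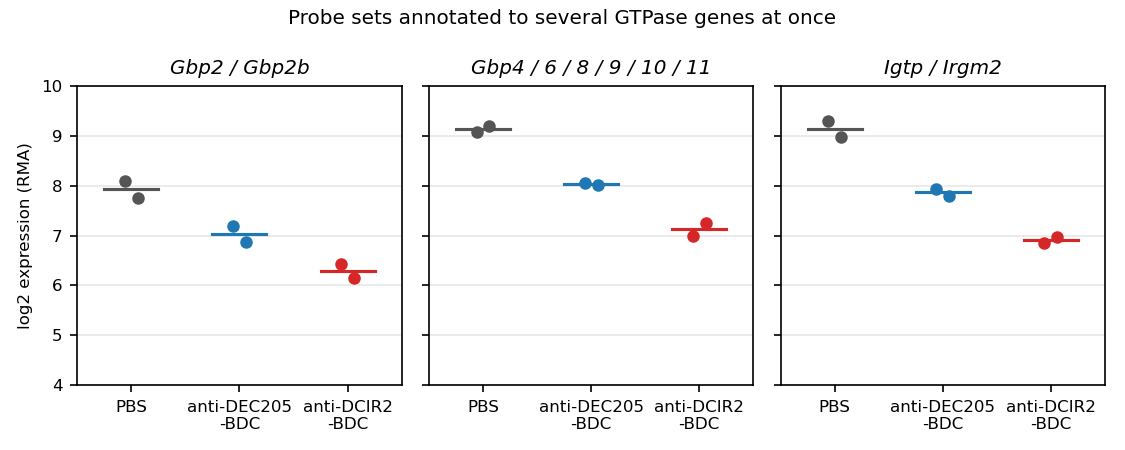
Log2 expression (vertical axis, points for arrays, bars for group means of 2) of the 3 shared probe sets by group (horizontal axis). In each the anti-DEC205-BDC arrays lie below the PBS arrays and the anti-DCIR2-BDC arrays below both, as between 6.85 and 6.97 for the set of Igtp and Irgm2.

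A list of other GTPases of these and related families showed lower values too. It includes Irgc1 and Irgq by family, and whether interferon induces each listed gene was not tested. Of 15 genes on that list 9 were measured on probe sets of their own. Of these 9 genes 4 fell and 0 rose after anti-DEC205-BDC, with a median log2 change of -0.54. After anti-DCIR2-BDC 6 fell and 0 rose, with a median of -0.85. Of all genes 3.53% and 7.82% fell. After anti-DEC205-BDC the 4 were Irgc1 (-0.95), Gm12250, which encodes the effector Irgb10 (-0.86), Gbp11 (-0.85), and the antiviral dynamin-like gene Mx2 (-0.72). After anti-DCIR2-BDC these were at -1.15, -1.16, -1.19 and -0.59, joined by Gbp5, a GBP linked to inflammasome assembly (-1.03), and the effector IRG gene Iigp1 (-0.85). Mx2 did not pass after anti-DEC205-BDC without PBS array 1, PBS array 2, DEC205 array 1 or DEC205 array 2 (limma adjusted p = 0.0811 to 0.129). After anti-DCIR2-BDC it did not pass without PBS array 1, PBS array 2 or DCIR2 array 2, where it was at -0.30 (adjusted p = 0.133 to 0.349). Iigp1 did not pass after anti-DCIR2-BDC without PBS array 1, DCIR2 array 1 or DCIR2 array 2 (0.0972 to 0.15). Gbp2b, Mx1 and Irgq passed in neither comparison. Gbp2b and Mx1 averaged 4.62 and 4.56 in PBS, below the median of all genes (5.66 in each PBS array), where a fall is harder to see. Among all probe sets, the shared sets of Tgtp1 and Tgtp2 were at -1.45 and -1.32 (limma adjusted p = 0.0391 and 0.0534), then -2.60 and -2.40 (both passed). That of Ifi47 and Olfr56 passed in neither (-0.25 and -0.34). Those naming Gvin1 passed only after anti-DCIR2-BDC (-1.31 to -2.15).

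Among the 16 measured genes of interferon receptors and signalling, the step that induces these GTPases, 8 fell and 2 rose after anti-DEC205-BDC, and 10 fell and 3 rose after anti-DCIR2-BDC. Both directions together made 8.84% and 17.9% of all genes. Ifng, the gene of the inducer interferon gamma, was at 6.21 and 5.21 in PBS, 6.63 and 6.07 after anti-DEC205-BDC, and 6.53 and 7.05 after anti-DCIR2-BDC. Its log2 change was 0.63 after anti-DEC205-BDC (limma adjusted p = 0.304), and 1.14 without PBS array 1, 0.13 without PBS array 2 and 0.36 without DEC205 array 1. After anti-DCIR2-BDC it rose by 1.07 (adjusted p = 0.0423), a call lost without PBS array 2 (change 0.57, adjusted p = 0.281), DCIR2 array 1 (0.0764) or DCIR2 array 2 (0.295). The lower of its PBS arrays thus set much of both values.

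The receptor chains of interferon gamma fell. Ifngr1, which binds the cytokine, was at 9.02 and 8.24 in PBS, 7.24 and 7.24 after anti-DEC205-BDC, and 6.80 and 6.74 after anti-DCIR2-BDC. The groups did not overlap, and the changes were -1.39 (limma adjusted p = 0.00703) and -1.86 (adjusted p = 0.000521). Ifngr2, the signalling chain, changed by -1.17 (adjusted p = 0.0169; lost without PBS array 1, PBS array 2 or DEC205 array 1, 0.0631 to 0.0879) and -1.54 (adjusted p = 0.00176). Ifnar2, a chain of the type I interferon receptor, was at -0.77 (adjusted p = 0.0761; passed without DCIR2 array 1, 0.0437, or DCIR2 array 2, 0.0452) and fell by 1.25 after anti-DCIR2-BDC (adjusted p = 0.00396).

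The transcription factors of the pathway did not all move the same way. Irf1, the factor that drives Gbp genes after interferon gamma, was at 8.67 and 8.62 in PBS, 7.80 and 7.79 after anti-DEC205-BDC, and 6.94 and 6.98 after anti-DCIR2-BDC. Its duplicates almost coincided and the groups were clearly apart. The changes of Irf1 were -0.85 (limma adjusted p = 0.0151) and -1.69 (adjusted p = 0.000153); the first did not pass without PBS array 1, PBS array 2, DEC205 array 1 or DEC205 array 2 (0.0532 to 0.0746), where its size stayed between -0.87 and -0.82. Stat2, a part of the complex that acts downstream of type I interferons, changed by -0.90 (adjusted p = 0.0244) and -1.45 (adjusted p = 0.000857). The former did not pass without PBS array 1, PBS array 2, DEC205 array 1, DCIR2 array 1 or DCIR2 array 2 (0.0546 to 0.155). Irf8, a related factor, rose from 6.47 and 6.59 in PBS to 7.85 and 8.60 after anti-DEC205-BDC (1.70, adjusted p = 0.00273) and to 8.38 and 8.31 after anti-DCIR2-BDC (1.82, adjusted p = 0.000568). Between the antibodies 0 of 16 genes of this list passed in limma, with 4 at an unadjusted p under 0.05, where 10.2% of all genes had one. Irf1 differed by -0.84 (limma adjusted p = 0.184). The list's count after anti-DEC205-BDC, 10 in both directions, was 4 without PBS array 1, 3 without PBS array 2 and 5 without DEC205 array 1.

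**Figure D5:**
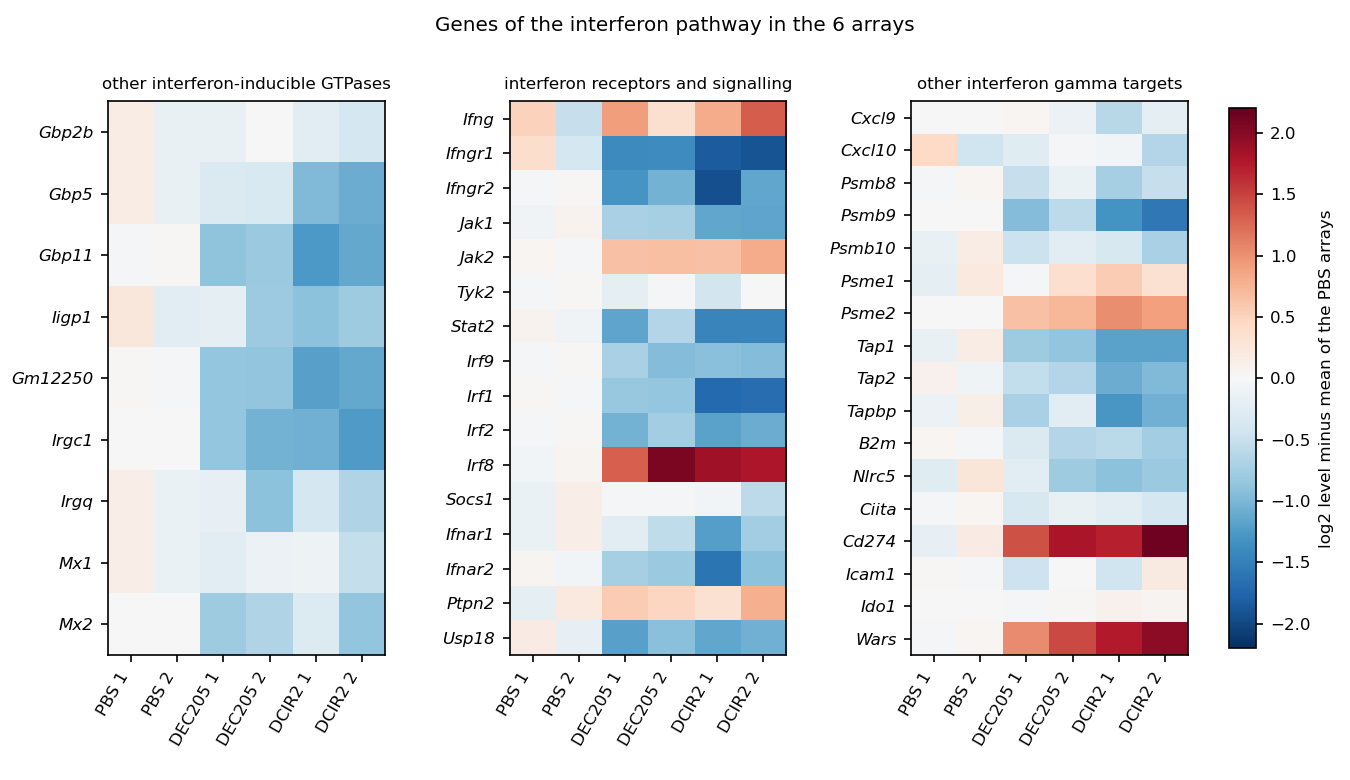
Log2 level minus the mean of the PBS arrays (colour, blue lower, red higher) in the 6 arrays (horizontal axis) for the genes (vertical axis) of 3 lists. Ifngr1 and Irf1 are blue in all antibody arrays and Irf8, Cd274 and Wars red.

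Other targets of interferon gamma split. Of 17 measured genes 3 fell and 3 rose after anti-DEC205-BDC, with a median of -0.26, and 6 fell and 3 rose after anti-DCIR2-BDC, with a median of -0.42. Of all genes 3.53% fell and 5.32% rose after anti-DEC205-BDC, and 7.82% fell and 10.1% rose after anti-DCIR2-BDC. Those that fell after anti-DCIR2-BDC were the immunoproteasome subunit Psmb9 (-1.45), the peptide transporter genes Tap1 (-1.18) and Tap2 (-1.03), the loading factor Tapbp (-1.16), the class I transactivator Nlrc5 (-0.86) and the light chain B2m (-0.68). After anti-DEC205-BDC the 3 were Tap1 (-0.82), Psmb9 (-0.77) and B2m (-0.49). The genes that rose in both were Cd274, which encodes the inhibitory ligand PD-L1 (1.60 and 1.92), Wars, a tryptophanyl-tRNA synthetase (1.25 and 1.86), and the proteasome activator Psme2 (0.69 and 0.96). After anti-DEC205-BDC, Psmb9 did not pass without PBS array 1, PBS array 2 or DEC205 array 1 (limma adjusted p = 0.0946 to 0.177), nor Tap1 without PBS array 2, DEC205 array 1 or DEC205 array 2 (0.0764 to 0.138). The list's count of 6 was 3 without PBS array 1, DEC205 array 1 or DEC205 array 2 and 2 without PBS array 2. B2m did not pass after anti-DEC205-BDC when PBS array 1, PBS array 2 or DEC205 array 2 was left out (0.0824 to 0.216), nor Psme2 when any of the PBS or DEC205 arrays was (0.0501 to 0.0914). Nlrc5 did not pass after anti-DCIR2-BDC without PBS array 2, DCIR2 array 1 or DCIR2 array 2 (0.102 to 0.169). Cd274 and Wars kept their calls without each single array.

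Genes of the machinery with which the GTPases work were read from another pair of lists, beside shares of 8.84% of all genes called in either direction after anti-DEC205-BDC and 17.9% after anti-DCIR2-BDC. Of 15 genes of ubiquitin-like conjugation and autophagy, which place GBPs and IRGs on vacuoles, 0 were called after anti-DEC205-BDC in limma. Of them 2 had an unadjusted p under 0.05, as did 20.7% of all genes. After anti-DCIR2-BDC 4 fell, where 7.82% of all genes did, and 0 rose: the ubiquitin ligase Trim21 (-0.82), the ATG8 family genes Map1lc3b (-0.76) and Gabarap (-0.71), and the conjugating enzyme Atg10 (-0.72). This count was 0 without DCIR2 array 1 and 1 without DCIR2 array 2. Map1lc3b was also lost without PBS array 1 (limma adjusted p = 0.24), and Atg10 (0.128) and Gabarap (0.104) without PBS array 2. Of 10 inflammasome and pyroptosis genes 0 were called after anti-DEC205-BDC. Of them 4 had an unadjusted p under 0.05 in limma, as did 20.7% of all genes. Il18, Nlrc4, Nlrp3 and Il1b averaged 3.67 to 4.95 in PBS, below the median of all genes (5.66 in each PBS array), where a fall is harder to see. After anti-DCIR2-BDC the pore-forming gene Gsdmd (-1.09) and the adaptor Pycard (-0.75) fell and the membrane rupture gene Ninj1 rose (0.92). Gsdmd kept its call without each single array, whereas Pycard did not pass without PBS array 1, PBS array 2, DCIR2 array 1 or DCIR2 array 2 (limma adjusted p = 0.0579 to 0.17) and Ninj1 not without DCIR2 array 2 (0.0635). The count of 3 was 1 without DCIR2 array 2.

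Likeness was ranked without the listed genes. Symbols starting with Gm and a digit (among them Gm12250), LOC, Olfr, Vmn or Mir, or ending in Rik, were also left out. Over the 6 arrays, the remaining genes whose centred log2 profile lay nearest to the mean profile of the 6 GTPase genes were Sidt1, Ypel3, Itgb7, Kat2b and Herc3. They differed from it by a root mean square of 0.0519 to 0.115 on the log2 scale. Within the GTPases, Gbp9 lay at 0.108 from this mean and Gbp3 at 0.451. Gbp4, which had the widest range (2.72), was most closely followed by Fbxl20, Ripor2, Sp100, Sema4a and Txk, at 0.133 to 0.176. The measure describes 6 arrays in 3 groups, which share the step between the groups.

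As a check of the label, the 9 measured T cell markers (among them Cd3d, Cd3e and Cd4) had a mean log2 level of 9.97 to 10.8 per array. The 2 CD8 T cell markers, Cd8a and Cd8b1, had means of 5.42 to 6.03, and the lists of B cell, macrophage and monocyte, dendritic cell, natural killer cell and neutrophil markers had means of 4.60 to 5.29. Levels of different probe sets are not on a common scale, and these values have no zero, so they do not settle which cells were present. The summed level of the T cell markers was 95.9 to 97.4 in PBS, 93.5 to 94.0 after anti-DEC205-BDC and 89.8 to 90.1 after anti-DCIR2-BDC. After anti-DCIR2-BDC 6 of 9 fell (median -0.82), where 7.82% of all genes did, led by Cd3g (-1.24) and Cd2 (-1.15). After anti-DEC205-BDC 0 were called in limma, where 3.53% of all genes fell. There 4 had an unadjusted p under 0.05, all of them lower, as did 10.1% of all genes. The part of this in the fall of the GTPases was not tested. Macrophage and monocyte markers, cells in which GBPs are also known to be abundant, summed to 41.9 to 42.3 over 8 genes in PBS, 40.4 to 40.8 after anti-DEC205-BDC and 39.9 to 40.7 after anti-DCIR2-BDC. Of these 1 was called, Cd14 after anti-DEC205-BDC (-0.83, limma adjusted p = 0.0341), lost without PBS array 1, PBS array 2, DEC205 array 2, DCIR2 array 1 or DCIR2 array 2 (0.0712 to 0.177). Without DEC205 array 2 its change was -0.45. Dendritic cell markers summed over 8 genes to 41.5 to 41.7, 41.4 to 42.0 and 40.7 to 41.2, with 0 called in limma in either comparison. Of them 0 and 1 had an unadjusted p under 0.05, against 20.7% and 28.1% of all genes. Of 5 natural killer cell markers Klrd1 fell (-1.54 and -2.62) and Eomes rose (1.64 and 1.06), both of which T cells can express, while Ncr1, Klrb1c and Klra8 were not called. Klrd1 was at -0.92 after anti-DEC205-BDC without DEC205 array 2, and Eomes at 0.64 after anti-DCIR2-BDC without PBS array 2. Klrd1 was lost after anti-DEC205-BDC when PBS array 2 was left out (limma adjusted p = 0.0711), as was Eomes after anti-DCIR2-BDC when it was run without PBS array 2 (0.139), DCIR2 array 1 (0.0506) or DCIR2 array 2 (0.177).

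Scaling touched the size of the changes slightly. Centring each array on its median shifted the median change of all genes by 0.0673 after anti-DEC205-BDC and by 0.106 after anti-DCIR2-BDC, and all 6 GTPase genes remained below PBS in both. With it 2.5% of all genes passed downwards and 5.95% upwards after anti-DEC205-BDC, against 3.53% and 5.32% as deposited, and 5.88% and 12% after anti-DCIR2-BDC, against 7.82% and 10.1%.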

How the data were processed

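Biotin-labelled cDNA, amplified from 5 ng of total RNA, was hybridised to Affymetrix arrays, per the labels' protocols. Each deposited value is the log2 level of 1 probe set, which the authors computed by RMA using Partek (per the labels and design text), with no version stated in the sources used here. RMA equalises array distributions before probe sets are summarised, so a shift shared by all genes cannot be read from these values. The deposited medians over all probe sets were still not equal. They were 5.55 and 5.56 in PBS, 5.48 and 5.50 after anti-DEC205-BDC, and 5.48 and 5.43 after anti-DCIR2-BDC. Of 35556 probe sets, the platform annotation gave 1 symbol to 21789 and several to 1621, while 12146 had none. RefSeq genes of GRCm38.p6 were found for 21698 of the single-symbol sets by Entrez identifier. The brightest single-symbol probe set by mean over 6 arrays represented each of 19938 genes. Tests used limma 3.58.1 under R 4.3.3 on all 6 arrays, with a mean for each group, a variance trend, Benjamini-Hochberg adjustment over all genes and a two-sided threshold of 0.05. The fit was tested on simulated data. Replicate arrays shared at most 18 identical values. The members and lists were chosen with earlier results of these data known. All members were named, with Ifng, Irf1 and up to 6 genes a list that passed in at least 1 comparison, by largest change; B2m, Nlrc5 and Psme2, genes given only as not called, and marker examples were chosen after their values were seen. The 17 alternatives changed normalization, dim-gene filter, probe sets, variance model, replicate block or arrays. Arrays of a group are few (2), which limits the precision.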

Additional observations from a re-analysis of the deposited data

How the results depend on the processing

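Over 17 alternatives, all 6 GTPase genes stayed below PBS in both comparisons. Tested among every probe set, 1 of 6 (Gbp9) passed after anti-DEC205-BDC, and 5 of 6 after anti-DCIR2-BDC. Leaving out single arrays gave 4 to 5, 5 to 6 and 0 of 6 in the 3 comparisons, and the replicate block 5, 6 and 0. Under the block Gbp3 had an adjusted p of 0.0519 after anti-DEC205-BDC; median centring gave 4 (Gbp3 0.0621, Gbp8 0.0543). The labels do not say whether equal replicate numbers share a source. Their deviations correlated at 0.145, 0.131 and 0.0714, which cannot settle this. The numbers were not used as pairs in the main fit, and whether they pair the arrays is not known. Between the antibodies Gbp3 changed sign with median centring (0.024), with quantile normalization (0.026), without DEC205 replicate 2 (0.18) and without DCIR2 replicate 2 (0.21), its range without single arrays being -0.24 to 0.21, and Gbp7 without DEC205 replicate 2 (range -0.70 to 0.15). In separate fits, 1763 genes were called after anti-DEC205-BDC as deposited, 997 to 1367 without single arrays, and 694 probe sets when every probe set was tested. The counts were 3568 and 2090 to 3637 after anti-DCIR2-BDC, and 4 and 0 to 27 between the antibodies. How many genes these counts share was not computed. Among every probe set the counts after anti-DEC205-BDC fell from 4 to 2 for other GTPases, 10 to 2 for receptors and signalling and 6 to 2 for other targets, and after anti-DCIR2-BDC from 4 to 2 for autophagy genes. Without the dimmest 50% of genes other GTPases counted 2 and 3 in the comparisons against PBS, where 3 of 9 were left; inflammasome genes ranged from 0 to 2 and from 1 to 4. The naming rule gave 16 and 34 genes of the other lists, marker lists included, that were called against PBS. Of these, 5 and 23 kept their calls under every alternative that held the gene. B2m, Nlrc5 and Psme2, named beside the rule, are not in these counts. With 2 arrays a group, differences between the antibodies of the size seen here did not pass, which does not show that the antibodies act alike.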
